A study of Homo sapiens with 32 samples.

Results

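The promoters described here belong to human genes named ZNF and a number, most of which encode zinc finger proteins. Members were those windows of the deposited ATAC-seq count table, all of equal length, with a centre at most 500 bp from a start of a protein-coding gene with such a symbol (GENCODE release 44, hg38). ZNF143, the degraded factor, and ZNF76 were left out. The rule took 832 of the 212358 windows and used no measured accessibility beyond the presence of a window. Of 506 ZNF genes in the annotation, 439 had at least 1 window, 205 of them on chromosome 19 and 234 elsewhere. The 67 genes without a window were 41 of 246 on chromosome 19 (16.7%) and 26 of 260 on the other chromosomes (10.0%).

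Accessibility was measured by ATAC-seq, in which the transposase Tn5 cuts open chromatin, in HEK293T, a human embryonic kidney cell line. All libraries came from HEK_CloneZD29, a single clone whose ZNF143 has a tag for inducible degradation, which the controls carry too. The 8 dTAGV-1 libraries, replicates 9 to 16, were made after 30 minutes with 50 nM dTAGV-1, a degrader molecule that acts on the tag. The 8 control libraries with the same numbers are called DMSO in their labels, while the protocol text describes the controls as not treated.

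Many ZNF genes encode proteins that join an array of DNA-binding zinc fingers to a KRAB domain, which recruits the co-repressor TRIM28 and silences, among other targets, transposable elements. The genes multiplied by tandem duplication and lie in clusters, most of them on chromosome 19, so that neighbours can share promoter sequence by descent. ZNF143 is itself a zinc finger protein, but an activator that binds close to transcription starts through a long sequence element, and the longer form of that element has the letters ACTACA ahead of its core.

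The sequences that the results turn on are matches to an extended ZNF143 consensus. It reads ACTACA, 1 free base, TTCCCAG, 1 free base and ATGC, so that 17 letters are specified over 19 bases. The best match on either strand was sought in each whole window. This consensus and the count of 15 matching letters used below were chosen after the changes at the members had been seen, including a count of short words in called and uncalled members, so the matches describe the members and were given no test. Each sequence below is the hg38 reference, 5' to 3' on the strand named, with 5 bases on either side of the best match, and capitals mark the letters that match the consensus. The first set comes from the 10 member windows with the smallest p-values, all of them lower in dTAGV-1, and shows what they had in common.
ZNF169 (chr9:94259259-94259287, minus strand): acggaACTACAcTaCCCAGacTGCcacgg
ZNF155 (chr19:43984146-43984174, minus strand): tctggACTACAcTTCCCAGaATcCcccga
ZNF223 (chr19:44051812-44051840, minus strand): aatggACTACtcTTCCCAGaATtCtccgg
ZNF32 (chr10:43648872-43648900, plus strand): aatggACTACAacTCCCAGgAgtCtcccc
ZNF527 (chr19:37370995-37371023, minus strand): gttgaACTACAtcTCCCAGagaaCcccgc
ZNF345/ZNF790 (chr19:36850272-36850300, plus strand): cttggACTACgtTTCCCAGgAgaCcctgc
ZNF230 (chr19:44002829-44002857, minus strand): gatggACTACAgTTCCCAGaATtCactcg
ZNF225 (chr19:44113309-44113337, minus strand): tctggACTACAcTTCCCAGaATtCcctgg
ZNF790 (chr19:36838711-36838739, minus strand): tctggACTACAtTTCCCAGggccgtcggg
ZNF587 (chr19:57849737-57849765, plus strand): ggggaACTACAtTaCCCAGaAaGCtctgc

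The start of the consensus was kept better than its end in these windows. The second set comes from chromosome 19 windows that repeat the same 19 letters at different genes. ZNF234, ZNF112, ZNF284 and ZNF221 share one version, ZNF233 and ZNF227 another, and ZNF417, ZNF552 and ZNF211 have the version of ZNF587 printed above. They are shown because windows with the same letters differed in their log2 fold changes.
ZNF234 (chr19:44141520-44141548, minus strand): gcgggACTACAtTTCCCAGaATtCcccgg
ZNF112 (chr19:44356782-44356810, plus strand): cccaaACTACAtTTCCCAGaATtCctaga
ZNF284 (chr19:44072083-44072111, minus strand): tgtgaACTACAtTTCCCAGaATtCcccgg
ZNF221 (chr19:43951202-43951230, minus strand): tctggACTACAtTTCCCAGaATtCcccgg
ZNF233 (chr19:44259842-44259870, minus strand): tctgcACTACAcTTCCCAGaATGCccgag
ZNF227 (chr19:44207440-44207468, minus strand): ccctgACTACAcTTCCCAGaATGCcccag
ZNF417 (chr19:57916686-57916714, minus strand): ggggaACTACAtTaCCCAGaAaGCtctgc
ZNF552 (chr19:57815008-57815036, minus strand): gggaaACTACAtTaCCCAGaAaGCtctgc
ZNF211 (chr19:57633063-57633091, plus strand): gggagACTACAtTaCCCAGaAaGCcttgc

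The last pair shows a full match in a window that was not called and a match to the short core with few letters in front of it.
ZNF444 (chr19:56140948-56140976, minus strand): tttggACTACAtTTCCCAGaATGCacgag
ZNF786 (chr7:149090794-149090822, minus strand): gccgggCgcCgggTCCCAGcATGCaccgc

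Libraries held between 2275856 and 13671039 counts. Control replicate 12 was the shallowest and the flattest, and its top decile of windows took up 31.8% of the counts, where the other controls had 45.8% to 49.6%. For dTAGV-1 replicates 11 and 12 the figure was 41.8% and 38.9%. Promoter windows were found for 6 of 7 genes listed as HEK293T markers, at control levels of 3.01 to 5.27 log2 CPM, and not for LHX1. Of 8 markers of other cells, PTPRC, CD3E, ALB, HBB, COL1A2 and KRT20 had no promoter window, whereas COL1A1 and EPCAM had windows at 3.89 and 3.75.

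ZNF promoters were open before dTAGV-1 was added, and on average more so than other coding promoters. Levels are log2 CPM, counts scaled to library size with TMM factors. The median control level of the 811 members that passed the filter on low counts was 3.43, against 3.13 over 30891 other coding promoter windows and 1.42 over all 185040 windows tested. The remaining 21 members had too few counts to test. Within each control library, the mean over members exceeded that over other coding promoters, by 0.25 ± 0.041 log2 units (SD, n = 8, range 0.21 to 0.33). In the dTAGV-1 libraries this lead was 0.17 ± 0.037 (SD, n = 8, range 0.12 to 0.23), and the ranges overlapped. The lead in means came mostly from members off chromosome 19. In control libraries the mean was 3.16 ± 0.15 over chromosome 19 members (SD, n = 8) and 3.56 ± 0.26 over members elsewhere. Over other coding promoters it was 3.14 ± 0.22.

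Promoters on chromosome 19 were less open than those of ZNF genes elsewhere. The mean over chromosome 19 members was below that over the others in every control library, by -0.40 ± 0.16 log2 units (SD, n = 8, range -0.54 to -0.071). Control replicate 12 gave the smallest gap, and without replicates 11 and 12 the mean was -0.47. In dTAGV-1 the gap was -0.49 ± 0.16 (SD, n = 8, range -0.64 to -0.21). The ranges of the groups overlapped, and the difference between the gaps was not tested.

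The most open members lay at ZNF687, ZNF397, ZNF862, ZNF654 and ZNF775. The ZNF654 window was centred 27 bp from a start of CGGBP1 as well, so its level cannot be assigned to a single gene. At ZNF687, a zinc finger gene mutated in a form of Paget disease of bone, the lowest, median and highest control libraries were at 5.91, 7.26 and 7.39 log2 CPM, and those of dTAGV-1 at 6.55, 7.21 and 7.43. The groups overlapped throughout. The 4 other windows had control means of 6.80 at ZNF397, 6.49 at ZNF862, 6.23 at ZNF654 and 6.10 at ZNF775, and log2 fold changes from -0.019 to 0.035, none of them called. The least open tested members were windows at ZNF317 (centre at -370 bp), ZNF148 and ZNF492 (355 bp), with control means of 0.50, 0.51 and 0.53.

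Sequence composition followed the promoter class rather than setting the members apart. The median GC content was 62.3% in members, 60.6% on chromosome 19 and 64.3% elsewhere, against 64.3% in other coding promoters and 48.1% in all windows. The ratio of observed to expected CpG had a median of 0.77 in members and 0.76 in other coding promoters. Window centres lay in introns for 307 members, between genes for 246, in untranslated regions for 194, in exons of noncoding transcripts for 69 and in coding exons for 16. A summit from the separately deposited list of replicates 1 to 8 fell in 679 members (81.6%), in 71.2% of other coding promoter windows and in 77.8% of all windows.

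Motifs of other promoter factors were counted within 100 bp of the centre of tested windows, on both strands, and the short ones can occur by chance. The ETS motif CCGGAAGT was in 10.1% of members, 3.14% of other coding promoters and 0.766% of all windows. The YY1 motif was in 2.10%, 0.618% and 0.122%, and the NFY motif CCAAT in 28.9%, 21.3% and 22.5%. The SP motif GGGGCGGGG did not set members apart, at 16.4% against 16.1% in other coding promoters and 3.92% in all windows. The NRF1 motif was in 1.6%, 0.948% and 0.206%. The CTCF motif was in 0 of 811 members, 1.19% of other coding promoters and 3.30% of all windows, which says only that its letters were not in these stretches.

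After dTAGV-1, a small share of ZNF promoters was less accessible, and none passed the test in the higher direction. At an adjusted p under 0.05 (edgeR's quasi-likelihood test, Benjamini-Hochberg over all 185040 windows), 32 of 811 members were lower (3.95%). The same rule called 0.213% of all windows and 0.541% of other coding promoter windows lower. No member was called higher, by edgeR or by DESeq2, where edgeR called 0.00108% of all windows higher. At an unadjusted p under 0.05, edgeR had 92 members lower and 4 higher, against 1.55% of all windows lower and 1.3% higher. In cells measured in bulk, fewer cells with an open promoter and less access per cell cannot be told apart.

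The 32 windows belonged to 32 genes, and their log2 fold changes (dTAGV-1 over control) ran from -1.22 to -0.57 with a median of -0.81 and standard errors of 0.13 to 0.18. Control replicate 12 weighed on the count, which was 53 without it, with all 32 among them. The lowest count with 1 library left out was 23, without control replicate 10, where 9 of the 32 were lost. Without replicates 11 and 12 of both groups the count was 61, with all 32 among them. The highest dTAGV-1 library stood under the lowest control at 9 of the 811 members, all 9 of them called, and in 0.0713% of all windows and 0.142% of other coding promoters. The reverse order was found at 0 members and in 0.00324% of all windows. The labels do not say whether replicates came from separate cultures, so p-values measure the spread between these libraries, which may be technical.

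Over members in general the shift was small. The median log2 fold change was -0.016 over the 811 members, 0.012 over other coding promoters and 0.0077 over all windows, and 53.5%, 45.7% and 48.2% of the values were negative.

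The called windows sat at the start of the gene. Centres of 25 of the 32 lay within 100 bp of a transcript start and 29 lay upstream, with a median of -49.5 bp and a range of -324 to 266. The share upstream was not set against that of all members. Of the tested members, 25 of 474 within 100 bp of a start were lower (5.27%), and 7 of the 337 farther out (2.08%). Members just inside the 500 bp limit, at ZNF608 (-499 bp) and ZNF853 (498 bp), had log2 fold changes of -0.22 and 0.042. Windows just outside it, at ZNF81 (-501 bp) and ZNF488 (504 bp), had -0.022 and 0.0074. A start of another coding gene lay within 500 bp of 116 members, of which 3 were lower, at ZNF605 (with CHFR), ZNF283 (with LYPD5) and ZNF37A (with PLD5P1). The accessibility of such shared windows cannot be assigned to a single gene. This holds too for uncalled windows named in this report at ZNF654 (with CGGBP1), ZNF473 (with VRK3), ZNF697 (with PHGDH) and ZNF222 (with an unnamed coding gene).

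The largest falls were at ZNF155 and ZNF169, both genes of KRAB zinc finger proteins. At ZNF169 (chromosome 9, 94259078 to 94259478, centre in a noncoding exon at -20 bp from the start), the lowest, median and highest control libraries were at 4.00, 4.55 and 4.68 log2 CPM. Those of dTAGV-1 were at 2.88, 3.25 and 3.52. The groups did not overlap, and the log2 fold change was -1.21 (SE 0.14, edgeR adjusted p = 1.5e-07). At ZNF155 (chromosome 19, 43983945 to 43984345, centre in an intron at -25 bp), control libraries ran from 2.91 through a median of 3.71 to 3.83 and dTAGV-1 libraries from 1.9 through 2.29 to 2.94. All but 1 dTAGV-1 library were lower than every control. The log2 fold change was -1.22 (SE 0.16, edgeR adjusted p = 2.506e-06).

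ZNF223, ZNF230 and ZNF225 lie in the same chromosome 19 cluster as ZNF155. At ZNF223 (44051747 to 44052147, in an intron, -89 bp) control libraries ran from 3.96 through 4.64 to 4.91 and dTAGV-1 libraries from 3.08 through 3.63 to 3.71, with no overlap. Its log2 fold change was -1.05 (SE 0.14, edgeR adjusted p = 3.683e-06). At ZNF230 (44002699 to 44003099, in a noncoding exon, -58 bp) the controls ran from 3.61 through 4.17 to 4.48 and dTAGV-1 from 2.99 through 3.29 to 3.60. These groups did not overlap either, and the log2 fold change was -0.86 (SE 0.14, edgeR adjusted p = 0.0001562). ZNF225 was more open, with controls from 4.70 through 5.15 to 5.43 and dTAGV-1 from 3.92 through 4.26 to 4.71, and 7 dTAGV-1 libraries lay below every control. Its log2 fold change was -0.87 (SE 0.14, edgeR adjusted p = 0.0002548) at 44113080 to 44113480, in an intron at -119 bp.

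Another cluster of chromosome 19 held ZNF527 and ZNF790. At ZNF527 (37370829 to 37371229, between genes, -32 bp) controls ran from 4.03 through 5.02 to 5.25 and dTAGV-1 from 3.81 through 4.03 to 4.30, with a log2 fold change of -0.94 (SE 0.14, edgeR adjusted p = 5.662e-05). Only 3 dTAGV-1 libraries lay below every control, and the lowest control was replicate 12. The window shared by ZNF345 and ZNF790 (36850113 to 36850513, in an untranslated region, centred on the start) ran from 3.39 through 3.75 to 3.95 in controls and from 2.38 through 2.91 to 3.25 in dTAGV-1, a log2 fold change of -0.87 (SE 0.14, edgeR adjusted p = 8.623e-05). A second window of ZNF790 (36838496 to 36838896, in an intron, -309 bp) ran from 2.36 through 2.68 to 3.15 and from 1.08 through 1.66 to 2.24, a log2 fold change of -1.01 (SE 0.17, edgeR adjusted p = 0.0003249). Neither of these ZNF790 windows had overlapping groups. Other windows of ZNF790 were not called, although their matches to the consensus were longer. One with 16 letters had a log2 fold change of -0.31, and one shared with ZNF345, with 15 letters, had -0.22.

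The last members of the leading 10 were ZNF587, in the cluster at the end of the long arm of chromosome 19, and ZNF32, on chromosome 10. At ZNF587 (57849599 to 57849999, in a noncoding exon, -60 bp) controls ran from 3.29 through 3.51 to 3.74 and dTAGV-1 from 1.93 through 2.66 to 3.12, with no overlap and a log2 fold change of -0.84 (SE 0.14, edgeR adjusted p = 0.000374). At ZNF32 (43648724 to 43649124, in an intron, -43 bp) controls ran from 3.02 through 4.37 to 4.46 and dTAGV-1 from 2.86 through 3.22 to 3.52, a log2 fold change of -1.03 (SE 0.15, edgeR adjusted p = 1.919e-05). The control at 3.02 was replicate 12, and 2 dTAGV-1 libraries lay below it.

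**Figure D1:**
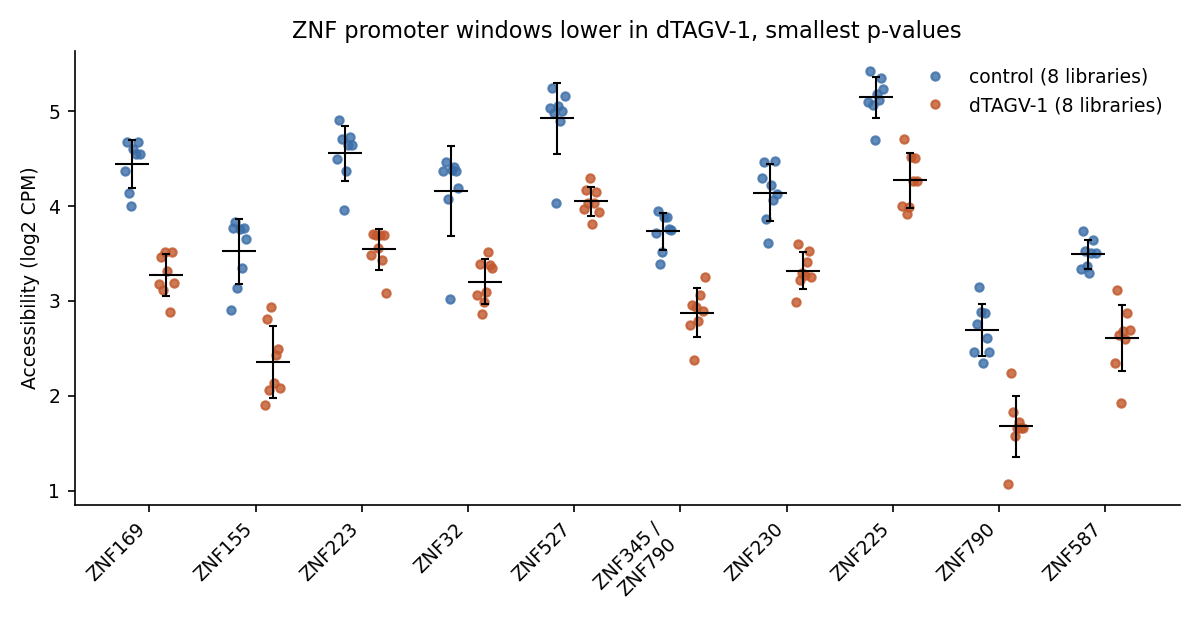
Accessibility (log2 CPM) in each library at the 10 ZNF promoter windows with the smallest p-values, 8 control libraries in blue and 8 dTAGV-1 libraries in orange; horizontal bars are means and whiskers SD. The groups do not overlap at ZNF169, ZNF223, ZNF345/ZNF790, ZNF230, ZNF790 and ZNF587, and the single low control at ZNF32 and ZNF527 is replicate 12.

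Away from chromosome 19 the called members also included ZNF24, whose SCAN-domain product is known as a repressor, and ZNF74, a gene of the chromosome 22 region deleted in DiGeorge syndrome. Their log2 fold changes were -0.57 at ZNF24 (SE 0.13, edgeR adjusted p = 0.03907) and -0.62 at ZNF74 (SE 0.13, edgeR adjusted p = 0.01354). The groups did not overlap at ZNF74, and at ZNF24 7 dTAGV-1 libraries were lower than every control.

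Some members missed the threshold narrowly. The 5 uncalled members with the smallest p-values in the lower direction were ZNF222, ZNF304, ZNF354B, ZNF460 and ZNF473, with log2 fold changes of -0.74, -0.55, -0.64, -0.55 and -0.57 and edgeR adjusted p of 0.05757 to 0.08902. ZNF473 encodes a zinc finger protein of the machinery that processes histone mRNA. In the higher direction, among members with at least the median level of all windows, the smallest p-values belonged to ZNF219, ZNF317 (237 bp), ZNF711, ZNF674 and ZNF492 (-86 bp). Their log2 fold changes were 0.49, 0.46, 0.35, 0.32 and 0.28, with edgeR adjusted p of 1. At ZNF219 the controls ran from 0.94 through 1.6 to 2.32 and dTAGV-1 from 1.74 through 2.02 to 2.25, so the groups overlapped.

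Lower calls were denser on chromosome 19. There 20 of 334 tested members were lower (5.99%), against 12 of 477 elsewhere (2.52%). Other coding promoters on chromosome 19 had 26 lower of 1624 (1.6%), above their share over the genome. The median log2 fold change was -0.054 on chromosome 19 (quartiles -0.23 and 0.049) and 0.0026 on the other chromosomes (quartiles -0.092 and 0.073), and 59.9% and 49.1% of the values were negative. The difference between the chromosome 19 members and the rest was not tested. Both counts rested on single libraries. The count elsewhere was 7 without control replicate 10 and 22 without control replicate 12. On chromosome 19 it was 16 without control replicate 10 and 31 without control replicate 12.

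The calls on chromosome 19 fell in a few gene clusters. Runs of at least 5 ZNF genes with gaps of at most 200000 bp made 22 clusters, 12 of them on chromosome 19, and 5 of the 22 held a lower call. Of the 20 calls on chromosome 19, 18 lay in 3 clusters. ZNF283 to ZNF180 had 10 lower of 25 tested windows with a median log2 fold change of -0.55, ZNF566 to ZNF573 had 6 of 41 with -0.26, and ZNF302 to ZNF792 had 2 of 9 with -0.32. The cluster from ZNF264 to ZNF446 had 1 of 51 with a median of -0.22. The most negative fitted value there was at a window of ZNF544, -1.05 with an SE of 0.31 and an edgeR adjusted p of 0.4795, which was singled out after its value was seen.

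In the other 8 clusters of chromosome 19, 171 tested windows held no lower call, and their medians ran from -0.18 to 0.049. ZNF577 to ZNF331, with 59 windows the largest by that count, had a median of 0.049. ZNF737 to ZNF254 had 25 windows and a median of 0.033, and ZNF653 to ZNF791 had 30 and 0.013. Off chromosome 19 the cluster with calls was ZNF605 to ZNF268 on chromosome 12, with 2 lower of 10, at ZNF605 and ZNF140, and a median of -0.22. Without the ZNF283 to ZNF180 cluster, 10 of 309 chromosome 19 members were lower (3.24%), with a median of -0.039.

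**Figure D2:**
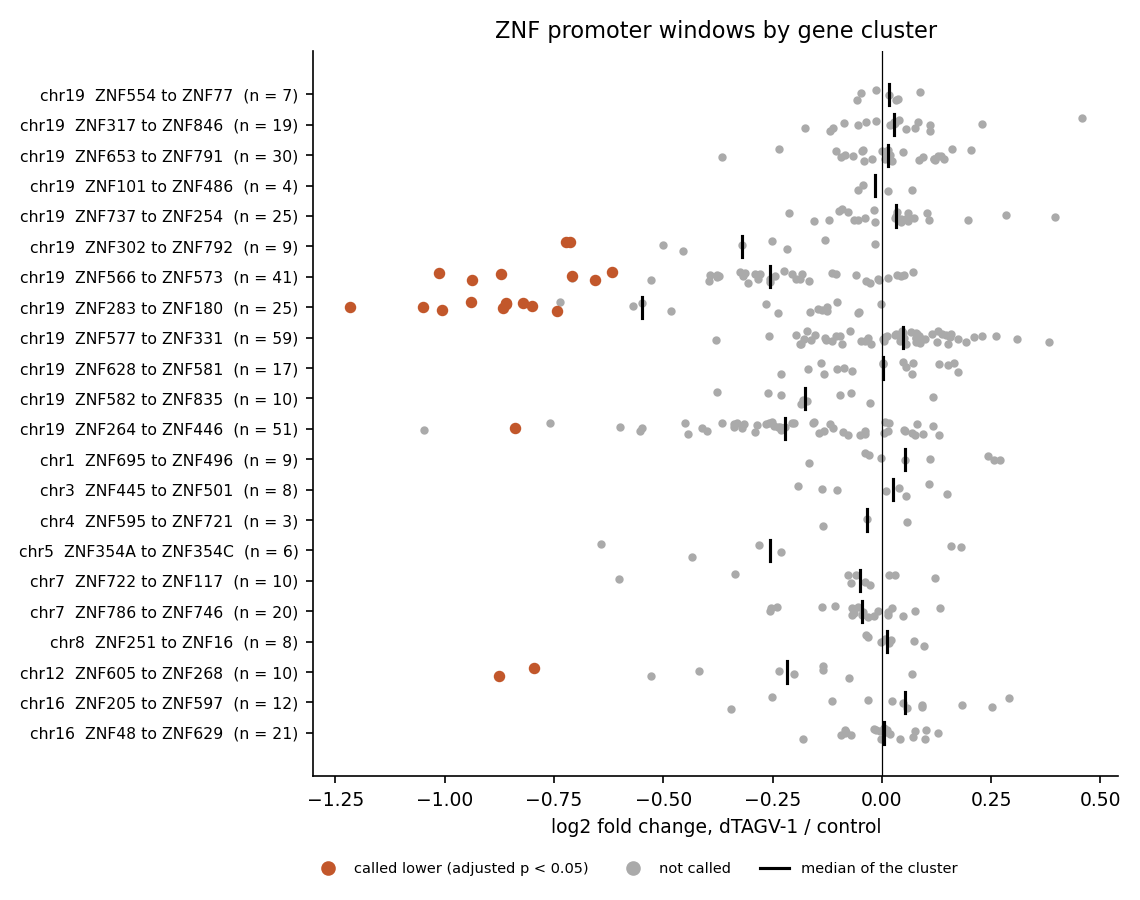
Log2 fold change (dTAGV-1 over control) of each tested ZNF promoter window, by gene cluster, with chromosome 19 clusters first in order along the chromosome; n is the number of windows, orange points passed an adjusted p of 0.05 and black bars are medians. Lower calls stand in ZNF302 to ZNF792, ZNF566 to ZNF573, ZNF283 to ZNF180, ZNF264 to ZNF446 and ZNF605 to ZNF268, and the 59 windows of ZNF577 to ZNF331 centre on 0.049.

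The called members shared matches to the extended consensus. A match of at least 15 of the 17 letters, called a long match here, was present in 64 of 811 members (7.89%), in 1.21% of other coding promoter windows and in 0.386% of all windows. On chromosome 19 it was in 42 of 334 (12.6%) and elsewhere in 22 of 477 (4.61%). All 32 called members matched at least 13 letters: 18 had a long match, 8 matched 14 and 6 matched 13. Of the 658 members with at most 12 letters, 0 were called, and their median log2 fold change was 0.011.

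Among members with a long match, 18 of 64 were lower (28.1%), with a median of -0.35, and without one 14 of 747 were lower (1.87%), with a median of -0.0011. On chromosome 19 the counts were 14 of 42 (33.3%) with a long match and 6 of 292 (2.05%) without. Elsewhere they were 4 of 22 (18.2%) and 8 of 455 (1.76%). Without control replicate 12, 29 members with a long match were lower. Other coding promoters had 71 lower of 373 (19%) and a median of -0.31 with a long match, and 96 of 30518 (0.315%) and 0.013 without. All windows with a long match had 196 lower of 714 (27.5%).

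**Figure D3:**
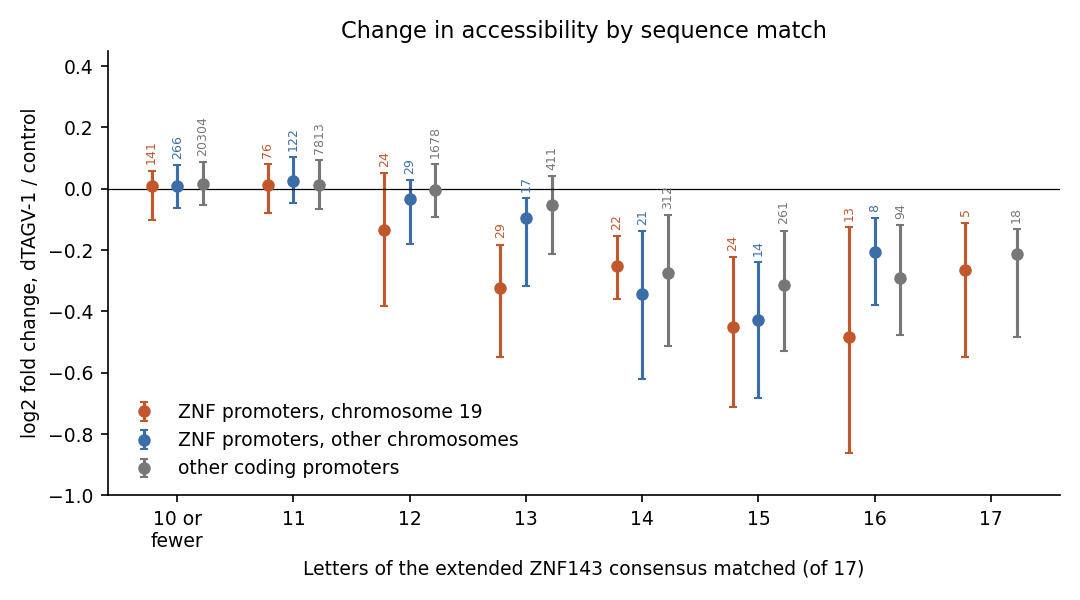
Median log2 fold change (points) with quartiles (whiskers) of tested windows by the number of letters of the extended ZNF143 consensus matched, for ZNF promoters on chromosome 19 (orange), on other chromosomes (blue) and other coding promoters (grey); small numbers are windows. Medians lie near 0 up to 11 letters and below 0 from 13 letters up wherever a class has windows.

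The levels of members with and without a long match were also compared within each library. In controls, members with a long match were more open than members without one by 0.79 ± 0.051 log2 units (SD, n = 8, range 0.69 to 0.88). In dTAGV-1 libraries they were more open by 0.40 ± 0.079 (SD, n = 8, range 0.31 to 0.54). The ranges did not overlap, and the means differed by -0.39 with or without replicates 11 and 12. The match was chosen with the changes in these same libraries known, so this separation restates them and is no independent support. No p-value was given for that reason.

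**Figure D4:**
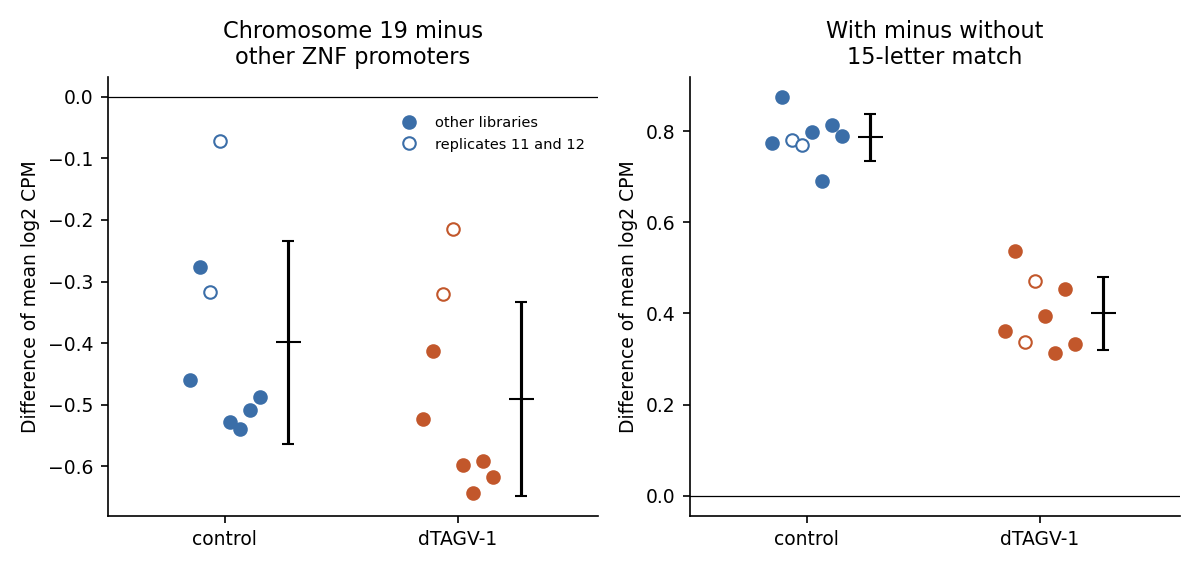
Difference of mean log2 CPM in each library, chromosome 19 minus other ZNF promoters (left) and ZNF promoters with minus without a match of 15 or more letters (right); open points are replicates 11 and 12, and bars with whiskers are mean and SD over 8 libraries. The groups overlap on the left and do not on the right, where controls lie between 0.69 and 0.88 and dTAGV-1 between 0.31 and 0.54.

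Few members held the short core, and 1 of them was called. The core CCCANAATGC or CCCANCATGC, whose letters fall inside the extended consensus, lay within 100 bp of the centre in 18 members (2.22%), 0.858% of other coding promoters and 0.594% of all windows. The called one was ZNF233, with a log2 fold change of -1.01 (SE 0.18, edgeR adjusted p = 0.001271). Controls at ZNF233 ran from 2.24 through 2.62 to 3.14 and dTAGV-1 from 1.09 through 1.56 to 2.35, with 7 dTAGV-1 libraries below every control. The other core-holding members nearest the threshold were ZNF235, ZNF500 and ZNF736, with log2 fold changes of -0.55, -0.57 and -0.60 and edgeR adjusted p of 0.1043, 0.1668 and 0.215. ZNF331, ZNF227, ZNF416, ZNF221, ZNF697 and ZNF341 ran from -0.38 to 0.11.

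Most called members kept the front of the consensus, and so did uncalled members with a long match such as ZNF404, ZNF45 and ZNF180. Of the 13 specified letters from ACTACA to TTCCCAG, at least 12 were matched in 28 of the 32 called members. Among the 779 not called they were matched in 83, but 658 of the 779 matched at most 12 letters of the whole consensus. Of the 18 called members with a long match, 17 lacked at least 1 of the last 4 letters, ATGC, as the sequences of ZNF155, ZNF223 and ZNF225 show. Over all 64 members with a long match, 12 kept those 4 letters and 7 held the core near the centre. The centre of the match lay at a median of -76 bp from the start (quartiles -126 and -14.8), upstream in 54 of 64, and ran on the strand of the gene in 24 and on the opposite strand in 40.

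The ZNF283 to ZNF180 cluster carried the match at most of its promoters. This run of 20 genes on chromosome 19 (43827321 to 44500524) had 25 tested windows, 19 with a long match, and all 25 log2 fold changes were negative. The 19 windows with the match had a median of -0.74 (range -1.22 to -0.052), and 10 were called. The 6 without it had a median of -0.11 (range -0.16 to -0.0025), and 0 were called. The match ended in AATTC in 9 of the 19 and kept ATGC in 4. No window of the cluster had a near-identical copy among the others, taken as at least 95% identity over 75% of its length.

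The called genes of the cluster were ZNF283, ZNF155, ZNF230, ZNF223, ZNF224, ZNF225, ZNF234, ZNF227, ZNF233 and ZNF112. ZNF224, known as a KRAB repressor of the aldolase A gene, had controls from 3.42 through 4.36 to 4.67 and dTAGV-1 from 2.94 through 3.60 to 3.71. Its log2 fold change was -0.86 (SE 0.15, edgeR adjusted p = 0.0004019), although only 2 dTAGV-1 libraries lay below every control. The mean over the windows of the cluster ran from 2.90 to 3.43 log2 CPM over the control libraries, with a mean of 3.14 ± 0.15 (SD, n = 8). Over the dTAGV-1 libraries it ran from 2.44 to 2.88, with a mean of 2.65 ± 0.13 (SD, n = 8), and the groups did not overlap. The cluster was singled out with its calls in these same libraries known, so this separation restates them and is no independent support.

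**Figure D5:**
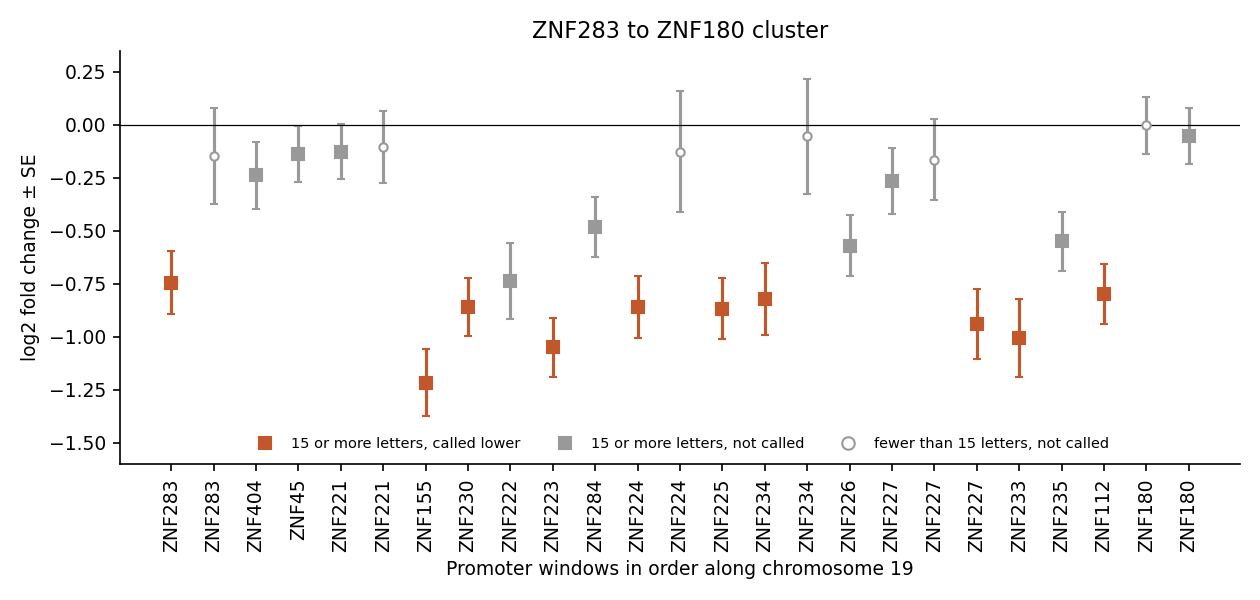
Log2 fold change with its SE at the 25 tested windows of the ZNF283 to ZNF180 cluster, in order along chromosome 19; squares have 15 or more letters of the consensus, open circles fewer, and orange marks an adjusted p under 0.05. The 10 called windows are squares, squares at ZNF404, ZNF45, ZNF221 and ZNF180 run from -0.24 to -0.052, and the circles run from -0.16 to -0.0025.

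A long match did not go with a fall at every promoter. In that cluster ZNF404, ZNF45, ZNF221 and ZNF180 had long matches and log2 fold changes of -0.24 (SE 0.16), -0.14 (SE 0.13), -0.13 (SE 0.13) and -0.052 (SE 0.13). ZNF444, farther along chromosome 19, matched all 17 letters and had -0.11 and 0.071 in a pair of overlapping windows, with SE of 0.14 in each.

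Windows with the same 19 letters spread as widely. Of 64 windows with a long match, 18 shared their letters with another, in 7 sets, 1 of them the pair of overlapping ZNF444 windows. ZNF234, ZNF112, ZNF284 and ZNF221 had log2 fold changes of -0.82, -0.80, -0.48 and -0.13. ZNF587, ZNF417, ZNF552 and ZNF211 had -0.84, -0.33, -0.23 and -0.050. ZNF233 had -1.01 and ZNF227, with the same letters in a window at -102 bp, had -0.26 (SE 0.15). In contrast, ZNF224 and ZNF225, alike over the 29 bases printed above for ZNF225 only, had -0.86 and -0.87. At ZNF211 the controls ran from 3.08 through 3.64 to 3.99 and dTAGV-1 from 3.30 through 3.64 to 3.77, so the groups overlapped fully, in contrast to those of ZNF587. Differences between windows of a set were not tested, and what else differs between them was not examined.

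Genes that act with ZNF proteins, and zinc finger families named otherwise, were read from the same fit. Of 58 windows at 18 KRAB co-repressor genes, including TRIM28 and SETDB1, 0 were called and the median log2 fold change was 0.014. Over all windows 0.213% were called lower, and 1.55% were lower and 1.3% higher at an unadjusted p under 0.05, so lists this short carry little information by their counts. At an unadjusted p under 0.05, edgeR had 2 of them lower and 0 higher. ZSCAN genes had 0 calls in 31 windows, with 1 lower and 0 higher at an unadjusted p under 0.05, and ZKSCAN genes 0 in 14, with 0 and 0. ZFP genes had 1 of 30, at ZFP2 (-1.01, SE 0.14, edgeR adjusted p = 9.79e-06), where controls ran from 3.02 through 3.61 to 3.87 and dTAGV-1 from 2.21 through 2.60 to 2.78. ZBTB genes had 1 of 97, at ZBTB8B (-1.05, SE 0.14, edgeR adjusted p = 6.573e-06), where controls ran from 5.04 through 5.85 to 6.01 and dTAGV-1 from 4.51 through 4.75 to 4.93. Neither window had overlapping groups, and they matched 15 letters of the consensus at ZFP2 and 14 at ZBTB8B.

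Members were not independent of each other. Of the 439 genes, 169 had 1 window and 270 had more, up to 8 at ZNF398, and 380 members overlapped another member and so shared counts. A window within reach of 2 ZNF genes occurred 32 times. Near-identical copies elsewhere among the windows, where reads can be placed wrongly, were found for 16 members, of which 13 were tested and 0 were called.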

How the data were processed

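ATAC-seq counts of 16 libraries, 8 control and 8 dTAGV-1 (replicates 9 to 16), were taken from the deposited table of whole-number counts per window, not normalized, per the file headers. The number of columns left unused was 0. Each window also has a deposited -log10 q value from the authors' peak calling, and the separate summit list of replicates 1 to 8 has a deposited -log10 score. Only summit positions were used. Per the submitters' processing notes, cutadapt 1.8.1, Bowtie2 2.4.4, SAMtools 1.9 and hg38 were used. The peak caller, counting tool, read filters and any Tn5 shift are not given in the sources used here. Such a shift would apply to both groups. Depth ran from 2275856 to 13671039 counts.

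The quasi-likelihood test of edgeR 4.0.16 was run in R 4.3.3 after filterByExpr and TMM scaling, with the group as the only term. Adjustment was by Benjamini-Hochberg over 185040 windows, with a threshold of 0.05. Log2 CPM used a prior count of 2. On simulated data with 200 changed windows of 185040, 5.08% of changes of 0.5 on the log2 scale were recovered, 60.9% of 1 and 97.2% of 2. Over windows in general, changes near 0.5 were therefore mostly out of reach. The changed windows were drawn from all tested windows, with a median control level of 1.42 log2 CPM, against 3.43 for members. Recovery at the level of members was not simulated separately. Same-group libraries differed beyond counting noise in all 56 pairs (chi-square per degree of freedom 1.62 to 4.93). Alternatives were DESeq2 1.42.0, other scalings, no filter, a replicate block, other distances and left-out libraries.

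The members and lists were chosen with earlier results of these data known. Named windows were the called members with the smallest p-values, up to 10 in each direction (none was called higher), the 5 uncalled in each direction with the smallest p-values and at least median level, the 5 highest and 3 lowest control levels, up to 10 members with the ZNF143 core, and 2 windows on either side of the 500 bp limit. Other called members, the windows of the ZNF283 to ZNF180 cluster and those with equal matches were named after their values were seen. Near copies were found with BLAST 2.17.0. Protein sequences were not used here, so KRAB domains and fingers were not counted.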

Additional observations from a re-analysis of the deposited data

Results flagged for a closer look

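Groups of 8 libraries were screened, among them those at the named windows. A library was picked out where its gap to the nearest other, divided by the range of the group, exceeded 0.526. Of 90 groups 17 had such a library. Chance gives about 1 in 20 for independent groups, but these groups came from the same libraries. Control replicate 12 was the low library in 15. Its log2 CPM was 3.02 at ZNF32 (next 4.08), 4.03 at ZNF527 (next 4.90), 4.53 at ZNF354B (next 5.10), 5.91 at ZNF687 (next 7.02) and 6.02 at ZNF397 (next 6.73). It was 5.53 at ZNF862 (next 6.33), 5.05 at ZNF654 (next 6.29), 4.38 at ZNF775 (next 6.11), 4.00 at ZNF500 (next 5.01) and 4.91 at ZNF736 (next 5.71). It was 2.64 at ZNF331 (next 3.46), 3.96 at ZNF697 (next 5.31), 2.80 at ZNF341 (next 4.32), 2.95 at ZNF81 (next 3.81) and 0.80 at ZNF488 (next 2.06). This was also the shallowest library. The other 2 were dTAGV-1 replicate 16 at ZNF223, low at 3.08 (next 3.43), and dTAGV-1 replicate 10 at ZNF416, high at 4.77 (next 4.37).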

How the results depend on the processing

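The labels do not say that a replicate number marks a shared day or culture. Deviations of same-numbered libraries correlated at 0.028 to 0.34, over 0.1 in 5 of 8 pairs, and 5 of 8 libraries correlated best with their own number. Pairing was taken as given only with all pairs over 0.1, so it was neither used nor excluded. The level gap between chromosome 19 and other members was wider in dTAGV-1 in 8 of 8 same-numbered pairs, by 0.0035 to 0.14 log2 units. With the number as a replicate block, lower ZNF promoters rose from 32 to 63, those on chromosome 19 from 20 to 36, those elsewhere from 12 to 27, those with a long match from 18 to 31, other coding promoters from 167 to 400 and all windows called from 397 to 753. Leaving out replicates 11 and 12 of both groups gave 61, 35, 26, 29, 432 and 781 in the same order. Leaving out 1 library at a time gave 23 to 53, 16 to 31, 7 to 22, 16 to 29, 129 to 336 and 321 to 632, with the highest always without control replicate 12. In the ZNF283 to ZNF180 cluster it gave 10 to 13 calls, and no fit called a member higher. The count with a long match depended on a threshold chosen after the changes were seen, with 26 lower members at 14 or more letters and 7 at 16 or more. Median log2 fold changes over leave-one-out fits ran from -0.064 to 0.0076 for all members, -0.074 to -0.018 on chromosome 19 and -0.059 to 0.035 elsewhere, so the sign of the first and last was not fixed. Control level differences over leave-one-out settings ran from -0.45 to -0.38 for chromosome 19 against the rest and from 0.24 to 0.25 for members against other coding promoters. Over all other settings they ran from -0.47 (without replicates 11 and 12) to -0.30 (within 250 bp) and from 0.24 to 0.29 (all windows of the table). All 32 lower members stayed called with RLE scaling, library totals (42 called), DESeq2 (43 called), the block and without replicates 11 and 12, and 29 stayed with no filter. None of the 30 named windows tested across settings lost a call or changed direction, but the uncalled ones among them had no call to lose. The called ones among the named windows were mostly those with the smallest p-values. Of all 32 called members, 9 lost their call without control replicate 10. The cause of these changes was not tested. In data simulated from these libraries, 5.08% of changes of 0.5 on the log2 scale were recovered over windows in general, not at members alone.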
